A study of Mus musculus with 7 samples.

Results

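A set of genes that has been associated with mammary stem cells was followed across single cells of PyMT mouse mammary tumours and of blood: the 9 genes Cd24a, Cd44, Itga6, Itgb1, Prom1, Procr, Lgr5, Sox9 and Sox4. They were chosen by symbol and looked up in every table. Of the 11753 genes in the table of sorted tumour and blood cells, 8 were members, and Prom1 had no row there and was not analysed there. The tables of tumour cells labelled Ecad-positive held 8 members in library 1 (no row for Procr), 7 in library 2 (none for Prom1 and Lgr5) and 4 in library 3. All but Sox9 and Sox4 encode cell surface proteins; those 2 encode nuclear transcription factors, so the set is one of stem cell associated genes and not of surface genes alone.

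In the mouse mammary gland, cells that rebuild the gland after transplantation were first enriched by their surface levels of CD24 and of the integrin chains CD29 (Itgb1) and CD49f (Itga6). Basal (myoepithelial) cells carry more of these integrins than luminal cells, because integrins anchor them to the basement membrane. Procr and Lgr5 mark small basal subsets in the mouse gland, Prom1 marks mouse luminal cells, and Sox9 is a regulator of mammary stem and luminal progenitor states. CD44 is widely used as a marker of breast cancer cells with stem cell properties in human tumours.

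PyMT mice carry the polyoma middle T oncogene and develop mammary tumours. In experiment (ii), cells of 4 libraries were sorted by E-cadherin (Ecad), the adhesion protein of epithelial cells encoded by Cdh1. The groups are BEpos (labelled circulating tumour cells, Ecad-positive), BEneg (circulating tumour cells, Ecad-negative), TEneg (solid tumour cells, Ecad-negative) and TEpos (solid tumour cells, Ecad-positive), with 24 wells per library each, BEpos in library 1 only. Experiment (i) holds 3 libraries of 96 wells labelled as Ecad-positive cells of bulk PyMT tumours. The sources used here do not give strain, age or number of mice.

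Wells with at least 500 transcripts were used, which left 20 BEpos, 60 BEneg, 69 TEneg and 71 TEpos cells of 312 wells, and 95, 65 and 1 cells in libraries 1 to 3 of experiment (i). Transcripts summed per library and population came to 75125 in BEpos, 11172 to 25379 in BEneg, 17189 to 109892 in TEneg and 27416 to 71894 in TEpos. Levels are given as transcripts per 10000 of the same sum and shares as cells with at least 1 transcript. In TEneg library 2, 1 cell of 61227 transcripts made up 55.7% of the sum. The marker genes did not match every label. Leukocyte genes (12 of 13 measured) took 3.01% of BEpos and 8.99 ± 2.76% of BEneg transcripts, against 0.330 ± 0.163% in TEneg and 0.280 ± 0.0982% in TEpos (SD, n = 4 libraries), although Ptprc was at 0 in every group but BEneg. Cdh1 had 1 transcript in the wells labelled BEpos, which goes against their Ecad-positive label, and 3.88 ± 1.59 per 10000 in BEneg, 4.16 ± 1.94 in TEneg and 5.90 ± 3.40 in TEpos. Epithelial genes (10 of 11 measured) took 0.0107% of BEpos, 0.0977 ± 0.0284% of BEneg, 0.307 ± 0.0790% of TEneg and 0.545 ± 0.131% of TEpos transcripts.

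The member genes lie on several chromosomes (GRCm38, GENCODE vM21). Cd24a is at chr10:43578284-43584265 on the plus strand and Lgr5 at chr10:115450311-115587780 on the minus strand. Itga6 (chr2:71745616-71858416, plus), Cd44 (chr2:102811141-102901665, minus) and Procr (chr2:155751117-155755471, plus) share chromosome 2. Itgb1 is at chr8:128685654-128733200 (plus), Prom1 at chr5:43993620-44102032 (minus), Sox9 at chr11:112782224-112787760 (plus) and Sox4 at chr13:28948919-28953713 (minus). CEL-seq reads the 3′ end of transcripts, and of the 9 genes only Sox4 has another annotated gene, the antisense non-coding RNA Gm26735, over its last 1000 bases. The sources used here do not say whether the counting used strand, so Sox4 reads could include Gm26735.

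Within the solid tumour, the Ecad-negative and Ecad-positive sorts were compared to ask whether stem cell associated genes follow E-cadherin. Sox9 was lower in TEneg in 4 of 4 libraries and Itga6 higher in 4 of 4, but neither passed the test over all genes, and Cd24a did not pass it either. Of the 6 members tested with edgeR, 0 were called in TEneg against TEpos at an adjusted p under 0.05, where 6.33% of the 490 genes with enough transcripts (4.69% higher and 1.63% lower) and 1.93% of the 6167 genes with at least 10 transcripts (1.04% higher and 0.892% lower) were called. The unadjusted p was under 0.05 for 2 members, Sox9 and Itga6, and DESeq2 called 0. Cd24a and Sox9 were tested among the 490 genes, and Itga6, Itgb1, Lgr5 and Sox4, which were too low for that filter, among the 6167. Cd44 and Procr fell below both filters.

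Cd24a encodes a small lipid-anchored glycoprotein that is high on luminal epithelium and is also carried by granulocytes and B cells. It had 4.56, 5.37, 3.84 and 2.91 transcripts per 10000 in TEneg libraries 1 to 4, against 7.05, 5.01, 5.97 and 5.84 in TEpos. The groups overlapped and TEneg was lower in 3 of 4 libraries. Its log2 fold change of −0.30 had a wide interval (95% −0.96 to 0.37, edgeR adjusted p = 0.670). At a depth of 500 transcripts per cell the expected share of cells with Cd24a was 20.7 ± 3.06% in TEneg and 22.3 ± 3.51% in TEpos. The gap was wider at other depths. At 1000 transcripts per cell the shares were 30.8 ± 21.1% in TEneg and 43.9 ± 3.93% in TEpos (exact permutation test within libraries, p = 0.375). TEneg library 4 was at 0% there, against 44.5% in TEpos. Libraries 1 to 3 were at 35.1, 41.3 and 46.7% in TEneg, against 45.7, 38.2 and 47.1% in TEpos. At full depth the shares were 45.8 ± 16.7% in TEneg and 61.5 ± 13.9% in TEpos. TEneg was lower in 3 libraries and equal in the other (exact permutation test within libraries, p = 0.25). Full depth was not equal, with medians of 1603 transcripts per cell in TEneg and 2064 in TEpos.

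Sox9, a transcription factor of the SOX family, had 4.03, 4.09, 5.49 and 5.82 transcripts per 10000 in TEneg, against 9.90, 5.56, 10.9 and 10.6 in TEpos. Every TEneg library was below its own TEpos library, and the groups overlapped only through TEpos library 2. The fitted log2 difference was −0.77 (SE 0.29, edgeR adjusted p = 0.118) among the 490 genes. Among the 6167 genes it was −1.11 (SE 0.30) with an edgeR adjusted p of 0.0200, which would be a call, so the result depends on the gene filter. The estimate itself moved between the fits, which were normalized separately, and that of Cd24a moved too, from −0.30 to −0.62. Fold changes of members from different fits thus do not share a baseline. Over the 14 alternative settings the adjusted p ran from 0.0200 to 0.532 and the direction was lower in TEneg in all 14. At full depth, 47.6 ± 3.37% of TEneg cells held Sox9, against 73.6 ± 7.89% of TEpos cells. At 500 transcripts per cell the shares were 26.1 ± 9.90% and 37.05 ± 12.6% (lower in TEneg in 4 of 4 libraries, exact permutation test within libraries, p = 0.13, which is the smallest p that 4 libraries allow, so that no such test here can reach 0.05).

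**Figure D1:**
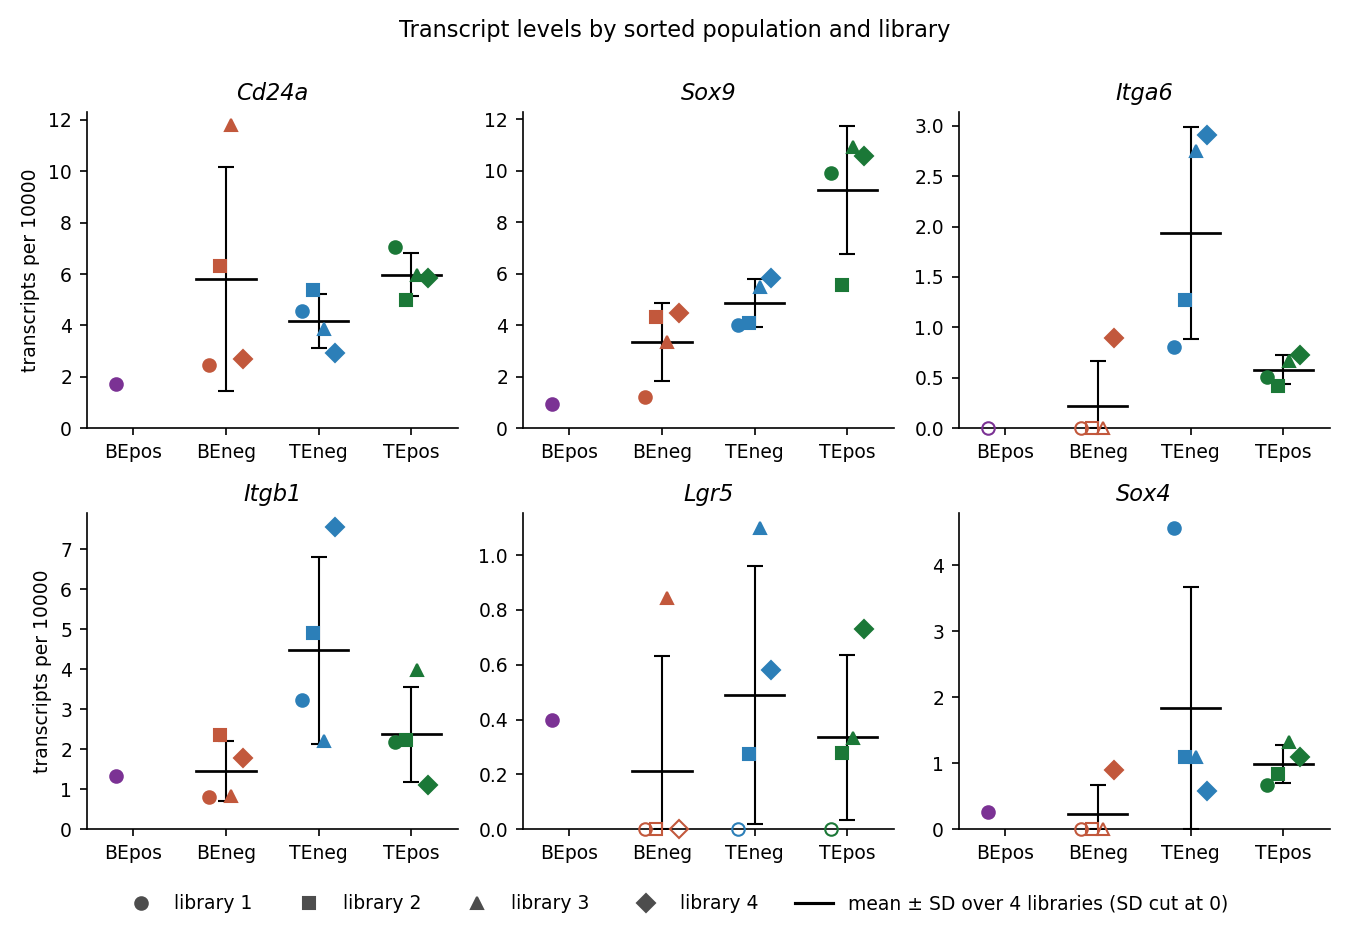
Transcripts per 10000 (vertical axes, linear, from 0) of the 6 tested members by sorted population, with 1 point per library (open at 0), horizontal lines for the mean and whiskers for the SD over 4 libraries (cut at 0). Sox9 was highest in TEpos, at 5.56 to 10.9, Itga6 was higher in every TEneg library (0.805 to 2.91) than in any TEpos library (0.417 to 0.730), and Itga6 and Sox4 were at 0 in 3 of 4 BEneg libraries.

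Itga6 encodes the integrin alpha 6 chain, a chain of the laminin receptor of basal cells. It had 3, 14, 5 and 5 transcripts in TEneg libraries, or 0.805, 1.27, 2.75 and 2.91 per 10000, against 3, 3, 2 and 2 transcripts, or 0.503, 0.417, 0.663 and 0.730 per 10000, in TEpos. All TEneg libraries lay above all TEpos libraries. Itga6 was the only 1 of the 6 tested members with groups that did not overlap. The share of all genes without overlap is not given here, so that count has no background to be judged against. The gap was also thin, with broadly overlapping Poisson intervals. TEneg library 1 was at 0.805 (0.166 to 2.35, from 3 transcripts) and TEpos library 4 at 0.730 (0.0883 to 2.64, from 2 transcripts). The log2 fold change was 1.34 (SE 0.61, edgeR adjusted p = 0.432), and it stayed above 0 in 13 of 13 alternative settings, from 0.49 to 1.62. At 500 transcripts per cell, 10.8 ± 5.87% of TEneg cells held it, against 3.20 ± 0.745% of TEpos cells (exact permutation test within libraries, p = 0.13, the smallest possible). At full depth the shares were 26.2 ± 7.10% and 11.3 ± 4.61%, higher in TEneg in 3 of 4 libraries (exact permutation test within libraries, p = 0.25). Library 1 ran the other way there, at 15.8% in TEneg and 16.7% in TEpos.

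Itgb1, the beta chain that pairs with integrin alpha 6 and with most matrix-binding alpha chains, had 3.22, 4.91, 2.20 and 7.56 transcripts per 10000 in TEneg, against 2.18, 2.23, 3.98 and 1.09 in TEpos. TEneg was higher in 3 of 4 libraries and the groups overlapped. The log2 fold change was 0.67 (SE 0.39, edgeR adjusted p = 0.677). Markers of other cell types were higher in TEneg: endothelial genes (11 of 14 measured) took 0.260 ± 0.0608% of TEneg against 0.0546 ± 0.0318% of TEpos transcripts, and basal genes (9 of 11 measured) 0.534 ± 0.449% against 0.0410 ± 0.00913%. In TEneg none of the measured genes of either list was at 0, and in TEpos the endothelial gene Emcn and the basal gene Snai2 were. Among the 69 TEneg cells, 37 exceeded the highest TEpos cell in their share of endothelial, basal or leukocyte genes, and 23 of the 31 TEneg cells with Itgb1 were among them. Itgb1 stood at 6.75 transcripts per 10000 in those 37 cells and at 3.22 in the other 32. The library 2 cell of 61227 transcripts was among the 32 and held 30 of their 37 Itgb1 transcripts. By endothelial genes alone, Itgb1 stood at 7.66 in 27 cells above any TEpos cell and at 3.45 in the rest of TEneg, which again holds that cell. By basal genes alone, it stood at 4.79 in 11 such cells and at 4.50 in the rest. It was found in 16 of the 27 and in 8 of the 11. With the 37 cells left out, the log2 fold change of Itgb1 was −0.24, the opposite sign.

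The same split gave Itga6 at 1.75 transcripts per 10000 in the 37 cells and 1.33 in the other 32 TEneg cells, so both lay above every TEpos library. Cd24a was at 3.37 in the 37 cells and 5.73 in the others, and Sox9 at 3.66 and 4.87. Sox4 was at 2.49 and 1.32. These are sums over cells of unequal size from 4 libraries and carry no test. The cell of 61227 transcripts alone held 34 of the 65 Cd24a and 26 of the 55 Sox9 transcripts of the other 32 cells. It also held 7 of their 15 Itga6 and 4 of their 15 Sox4 transcripts.

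**Figure D2:**
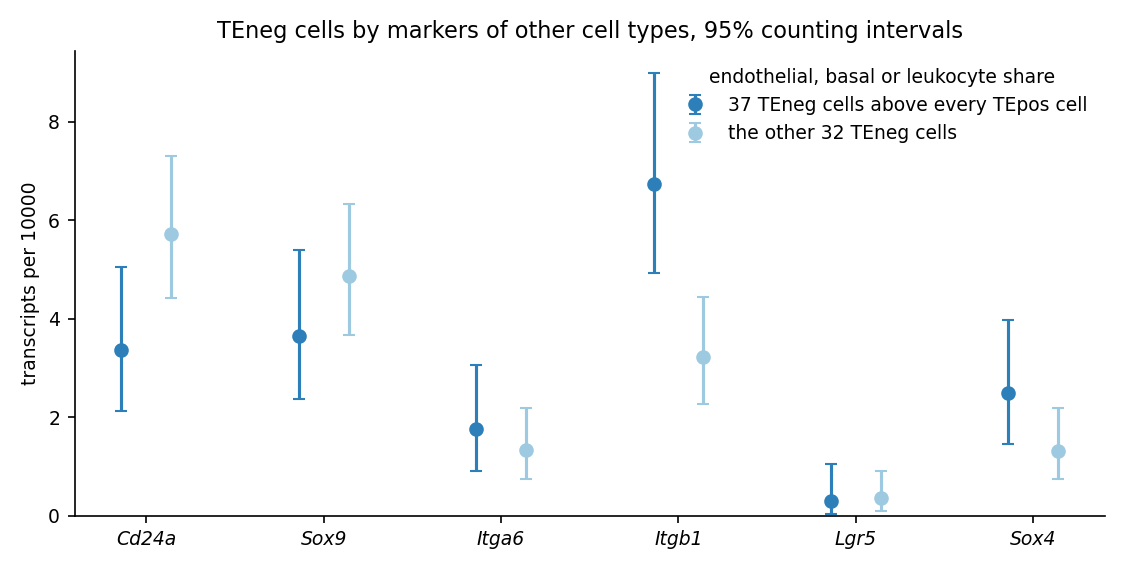
Transcripts per 10000 (vertical axis, linear) of the 6 tested members in the 37 TEneg cells whose share of endothelial, basal or leukocyte genes exceeded that of any TEpos cell (dark) and in the other 32 TEneg cells (light), with 95% Poisson intervals that cover counting error only. Itgb1 was at 6.75 in the dark group and 3.22 in the light group, while Cd24a was at 3.37 and 5.73. The light group includes 1 cell of 61227 transcripts, which held 30 of its 37 Itgb1 and 34 of its 65 Cd24a transcripts.

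Sox4, a SOX family transcription factor expressed in progenitor cells and in many carcinomas, had 4.56, 1.09, 1.10 and 0.582 transcripts per 10000 in TEneg, against 0.671, 0.835, 1.33 and 1.09 in TEpos. TEneg library 1 stood apart with 17 transcripts in 11 of 19 cells. The log2 fold change was 0.81 (SE 0.54, edgeR adjusted p = 0.774), and without library 1 it was −0.14. Lgr5, the receptor for R-spondins that strengthens Wnt signalling, had 0, 3, 2 and 1 transcripts in TEneg and 0, 2, 1 and 2 in TEpos. Those counts are too low to rank the groups (log2 fold change 0.19, 95% interval −1.94 to 2.31, edgeR adjusted p = 0.991).

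The hyaluronan receptor gene Cd44 had 1 transcript in TEneg, in library 1, and 0 of 189080 transcripts in TEpos, which allows up to 0.159 per 10000. Procr, the endothelial protein C receptor, had 1 transcript each in TEneg libraries 1 and 3 and 0 in TEpos. The 1 cell with Cd44 and the 2 cells with Procr were all among the 27 TEneg cells that exceeded any TEpos cell in endothelial genes. No difference in Cd44 or Procr was detectable at this depth.

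Blood and tumour cells of the same Ecad-negative sort were compared next. Itga6, Itgb1 and Sox4 were lower in BEneg than in TEneg, and Cd24a and Sox9 did not pass the test. Of 6 members tested, 3 were called, all lower and all among the 6167 genes, where 9.96% of genes were called, 4.46% as higher and 5.5% as lower. Of the 490 genes 41% were called (23.9% higher and 17.1% lower), and 0 of the 2 members among them. The median log2 fold change of all 6167 genes was −0.69. BEneg cells were shallower, with a median of 819 transcripts against 1603 in TEneg, and 8.99 ± 2.76% of their transcripts came from leukocyte genes, against 0.330 ± 0.163% in TEneg. The part of either in the calls was not tested.

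Itga6 had 0, 0, 0 and 1 transcripts in BEneg libraries 1 to 4, against 3, 14, 5 and 5 in TEneg. BEneg was lower in 4 of 4 libraries, with 1 overlapping pair, since the single transcript of library 4 came to 0.895 per 10000 and TEneg library 1 to 0.805. The BEneg level over all libraries was 0.0926 times the TEneg level (95% counting interval 0.00226 to 0.562), and the fitted log2 fold change was −3.37 (95% interval −5.41 to −1.34, edgeR adjusted p = 0.0166), an interval that lies below the median of all genes. Sox4 had 0, 0, 0 and 1 transcripts in BEneg, against 17, 12, 2 and 1 in TEneg, lower in 3 of 4 libraries. Its BEneg level was 0.0782 times the TEneg level (0.00192 to 0.468), and edgeR gave −3.57 on the log2 scale (95% interval −5.53 to −1.61, adjusted p = 0.00624). That value turned on single libraries, at −2.15 without library 1 (edgeR adjusted p = 0.427) and −6.18 without library 4 (adjusted p = 0.00156). Itga6 stood at −5.56 without library 4 (edgeR adjusted p = 0.0201).

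Itgb1 had 0.814, 2.36, 0.842 and 1.79 per 10000 in the BEneg libraries, against 3.22, 4.91, 2.20 and 7.56 in TEneg. BEneg was lower in 4 of 4 libraries, and the groups overlapped only where BEneg library 2 exceeded TEneg library 3. The log2 fold change was −1.61 (SE 0.51, edgeR adjusted p = 0.0210), and its 95% interval, −2.60 to −0.61, reaches the median of all genes. These calls rested on few transcripts. Of the 3, 0 remained without library 1 and 0 with DESeq2, 1 remained without library 2, 1 without library 3 and 2 without library 4. Both integrins stayed lower in BEneg in all 13 alternative settings, but the size moved. Without libraries 1 to 3 Itga6 stood at −3.14, −2.91 and −2.94, and with DESeq2 at −3.15. It stood at −5.56 without library 4, −5.21 with cells of at least 1000 transcripts and −0.72 with limma on means of cells. Itgb1 stood at −1.38, −1.93, −1.54 and −1.38 without each library in turn, none of them a call. It also missed the threshold with cells of at least 1000 transcripts (edgeR adjusted p = 0.168) and with no filter (adjusted p = 0.102). None of the 3 calls remained when the 37 TEneg cells high in endothelial, basal or leukocyte genes were left out, where Itga6 stood at −2.65, Sox4 at −2.88 and Itgb1 at −0.57 on the log2 scale.

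**Figure D3:**
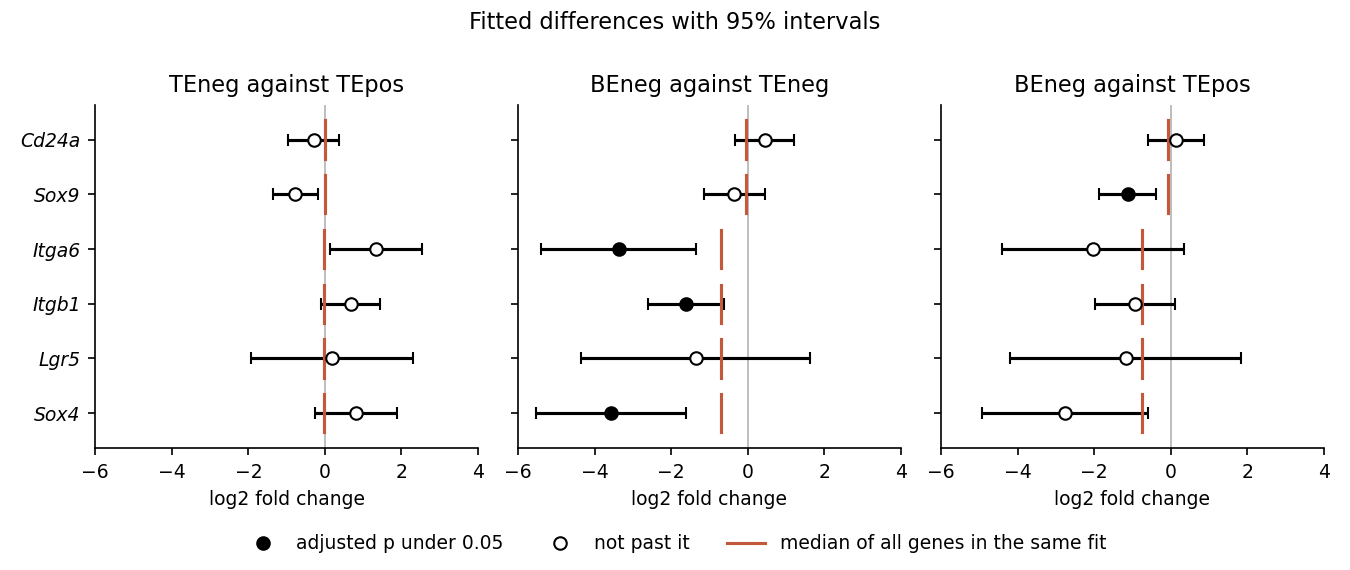
Fitted log2 fold changes (horizontal axes) of the 6 tested members in the 3 comparisons, with unadjusted 95% intervals; filled points have an edgeR adjusted p under 0.05, and the coloured tick is the median of all genes in the same fit. Filled points are Itga6, Itgb1 and Sox4 in BEneg against TEneg (−3.37, −1.61 and −3.57) and Sox9 in BEneg against TEpos (−1.13).

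Cd24a had 2.44, 6.30, 11.8 and 2.69 per 10000 in the BEneg libraries, against 4.56, 5.37, 3.84 and 2.91 in TEneg. BEneg libraries 2 and 3 were higher and libraries 1 and 4 lower, and the spread within BEneg (SD 4.36) exceeded the difference of the means (5.81 in BEneg and 4.17 in TEneg). The log2 fold change was 0.44 (95% interval −0.33 to 1.21, edgeR adjusted p = 0.383). Leukocyte genes took 8.99 ± 2.76% of BEneg transcripts, and their part in the Cd24a level was not tested. At 500 transcripts per cell, Cd24a was expected in 25.1 ± 13.6% of BEneg cells and in 20.7 ± 3.06% of those of TEneg. Sox9 had 1.22, 4.33, 3.37 and 4.48 per 10000 in the BEneg libraries, against 4.03, 4.09, 5.49 and 5.82 in TEneg. The groups overlapped (log2 difference −0.35, SE 0.39, edgeR adjusted p = 0.510). Lgr5 had 1 transcript in BEneg and 6 in TEneg (edgeR adjusted p = 0.630). Cd44 had 1 transcript each in BEneg libraries 2 and 4, and Procr had none in BEneg, which allows up to 0.411 per 10000.

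Against Ecad-positive tumour cells, Sox9 was the 1 member called, lower in BEneg. It had 1.22, 4.33, 3.37 and 4.48 per 10000 in the BEneg libraries, against 9.90, 5.56, 10.9 and 10.6 in TEpos. The groups did not overlap, and the log2 fold change was −1.13 (SE 0.36, edgeR adjusted p = 0.0106). Sox9 was 1 of 2 members tested among the 490 genes, where 48.2% of genes were called (27.1% higher and 21% lower), so the count is near the background. Of the 4 members tested among the 6167 genes 0 were called, where 12.4% of genes were (4.86% higher and 7.52% lower). Of 14 alternative settings, 10 kept the call of Sox9 and 4 lost it. The call was lost without library 1 (log2 fold change −0.72, edgeR adjusted p = 0.168), without library 3 (−1.01, adjusted p = 0.0574) and without library 4 (−1.11, adjusted p = 0.0505), and with cells of at least 1000 transcripts (−1.16, adjusted p = 0.0624). Among the 6167 genes the log2 fold change of Sox9 was −1.75 (edgeR adjusted p = 4.67e-05). At 500 transcripts per cell Sox9 was expected in 13.2 ± 7.10% of BEneg cells and in 37.05 ± 12.6% of those of TEpos, lower in 4 of 4 libraries (exact permutation test within libraries, p = 0.13, the smallest possible).

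Sox4 was lower in BEneg than in TEpos in 4 of 4 libraries but did not pass (log2 fold change −2.76, SE 1.11, edgeR adjusted p = 0.0801), with 1 transcript in BEneg and 17 in TEpos. It did pass in 2 settings in which Sox9 did not, with cells of at least 1000 transcripts (−4.90, edgeR adjusted p = 0.0415) and without library 4 (−5.15, adjusted p = 0.0381), so which member is called depends on the setting. Itga6 had 1 transcript in BEneg and 10 in TEpos, a BEneg level of 0.259 times the TEpos level (0.00597 to 1.82, edgeR adjusted p = 0.284). Itgb1 (log2 fold change −0.94, edgeR adjusted p = 0.259) and Lgr5 (−1.18, adjusted p = 0.675) did not pass. Cd24a averaged 5.81 ± 4.36 per 10000 in BEneg and 5.96 ± 0.837 in TEpos (log2 fold change 0.14, edgeR adjusted p = 0.782), and its sign turned in 7 of 14 alternative settings. BEneg enters both comparisons of blood with tumour, so they are not independent of each other.

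**Figure D4:**
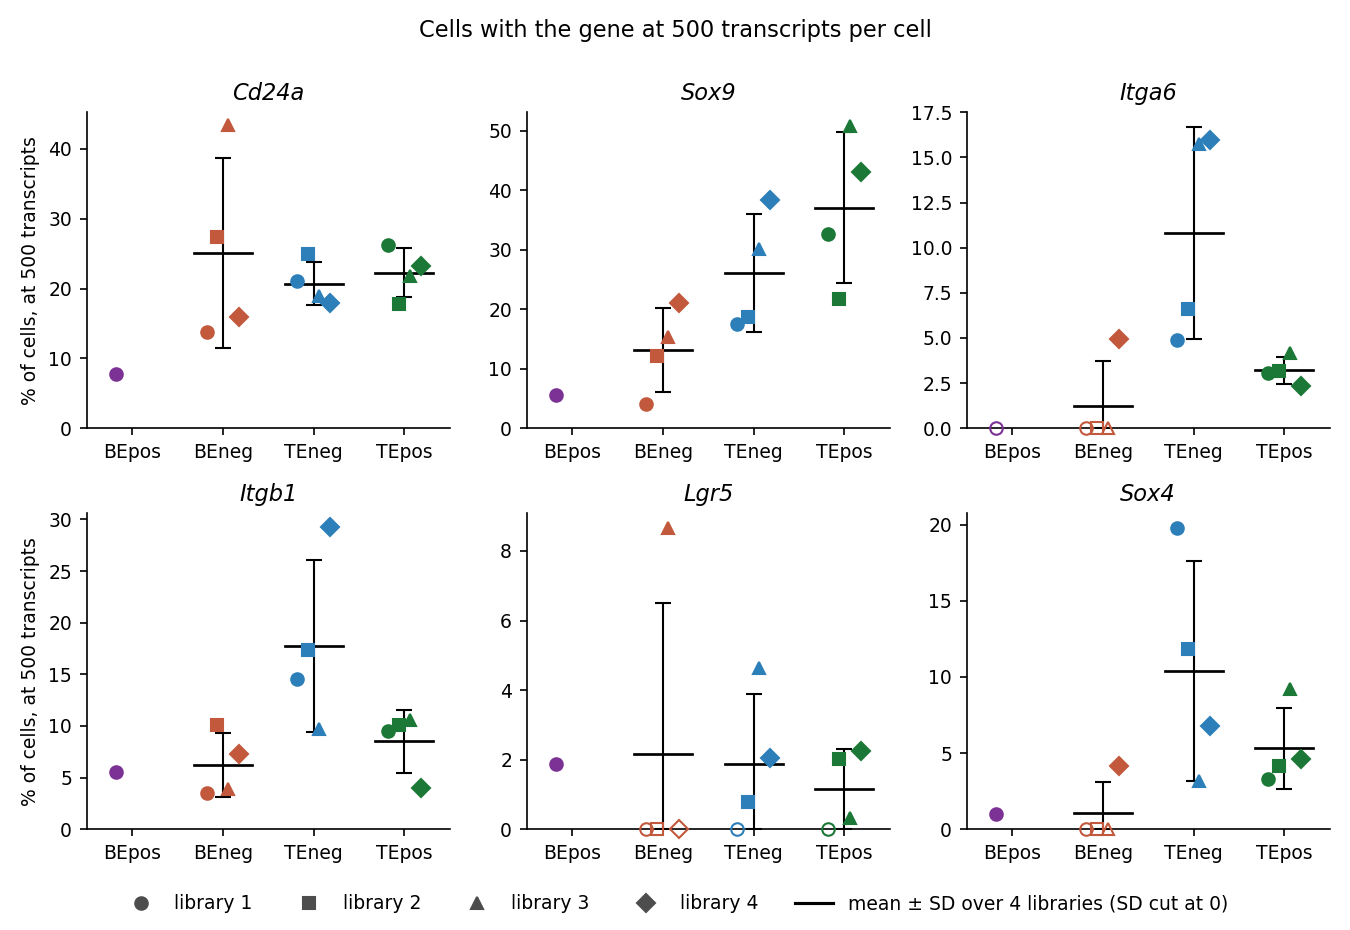
Percentage of cells with at least 1 transcript (vertical axes, linear, from 0) expected at 500 transcripts per cell, by population, with 1 point per library (open at 0), horizontal lines for the mean and whiskers for the SD over 4 libraries (cut at 0). The Sox9 share averaged 13.2% in BEneg, 26.1% in TEneg and 37.05% in TEpos. In library 1, the only library with BEpos, it was 5.52% in BEpos and 4.08% in BEneg.

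The wells labelled BEpos, which were deeper (median 3803 transcripts) but came from library 1 alone, carried few member transcripts and are given without a test. Cd24a had 13 transcripts in 7 of 20 cells, or 1.73 per 10000 (95% Poisson interval 0.921 to 2.96), against 6 transcripts in 5 of 18 cells, or 2.44 (0.897 to 5.32), in BEneg of library 1. Itgb1 was at 1.33 per 10000 (0.638 to 2.45) in BEpos and 0.814 (0.0986 to 2.94) in BEneg. Sox9 was at 0.932 (0.375 to 1.92) in BEpos and 1.22 (0.252 to 3.57) in BEneg. All 3 pairs of intervals overlapped. Lgr5 had 3 transcripts and Sox4 2 in BEpos, both at 0 in BEneg of library 1, where up to 1.22 per 10000 would go unseen. Cd44, Itga6 and Procr were at 0 in BEpos, which allows up to 0.399 per 10000.

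Sox9 stood at 0.932 per 10000 in BEpos, from library 1 alone, and at 1.22 in BEneg of that library. Ordered from the lowest mean level, Sox9 in the replicated groups stood at 3.35 ± 1.502 in BEneg, 4.86 ± 0.930 in TEneg and 9.25 ± 2.49 in TEpos. Neither TEneg with TEpos nor BEneg with TEneg passed the edgeR test among the 490 genes. With limma on means of cells both did, at −0.93 for TEneg against TEpos (adjusted p = 0.0436) and −0.84 for BEneg against TEneg (adjusted p = 0.0137). In that limma fit 43 of the 490 genes were called in TEneg against TEpos, 27 as lower, with a median of −0.21. In BEneg against TEneg 315 were called, 218 as lower, with a median of −0.56. Cd24a had its 3 replicated groups between 4.17 and 5.96, and none of their pairs passed. For both integrins and Sox4 the highest mean was that of TEneg, at 1.93 ± 1.05 for Itga6, 4.47 ± 2.34 for Itgb1 and 1.83 ± 1.84 for Sox4, followed by TEpos at 0.578 ± 0.143, 2.37 ± 1.19 and 0.982 ± 0.288. The place of Sox4 rests on TEneg library 1, without which its fitted difference from TEpos was −0.14.

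Single cells carried few members at once. At least 1 of the 8 measured members was found in 14 of 20 cells in BEpos, 35 of 60 in BEneg, 65 of 69 in TEneg and 66 of 71 in TEpos, and 3 or more in 4, 2, 25 and 23 of them. Depth moved with these counts: BEneg cells with none had a median of 716 transcripts and those with 3 or more 2316. Cd24a and Sox9 were found together in 16 of 69 TEneg and 33 of 71 TEpos cells. Separately, Cd24a was found in 33 TEneg and 44 TEpos cells, and Sox9 in 33 and 52. Itga6 and Itgb1, the subunits of one receptor, were found together in 11 of 69 TEneg and 2 of 71 TEpos cells. Separately, Itga6 was found in 18 TEneg and 8 TEpos cells, and Itgb1 in 31 and 21. Whether either pair occurred together more often than its separate counts would give was not tested. Of the TEneg transcripts in library 2, the large cell contributed 34 of 59 for Cd24a, 30 of 54 for Itgb1, 26 of 45 for Sox9 and 7 of 14 for Itga6. Per 10000 it stood at 5.58 for Cd24a, 4.84 for Itgb1 and 4.30 for Sox9, against 5.16, 4.97 and 3.92 in the other cells of that sum.

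Experiment (i) held tumour cells labelled Ecad-positive, in tables counted separately from those above. Only library 1 was deeper than TEpos, with medians of 3083 and 2064 transcripts per cell, and library 2 was shallower, at 883. In library 1 all 8 members with a row were found. Cd24a had 509 transcripts in 74 of 95 cells, or 11.6 per 10000 (95% Poisson interval 10.6 to 12.7), but 1 cell of 65391 transcripts held 233 of them. Without that cell, left out after the data were seen, Cd24a stood at 7.41 (6.56 to 8.33). In library 2 it had 19 transcripts in 10 of 65 cells, or 2.72 (1.63 to 4.24), below library 1 with or without the large cell. Sox9 was at 2.88 (2.40 to 3.42) in library 1 and 1.86 (0.989 to 3.18) in library 2, with overlapping intervals.

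Sox4, Itga6 and Cd44 ran the other way. Sox4 was at 4.43 (3.83 to 5.10) in library 1 and 12.1 (9.70 to 15.02) in library 2, and was found in 64 of 95 and 32 of 65 cells. At 500 transcripts per cell those shares were 18.5% and 34.2%. Itga6 was at 0.753 (0.519 to 1.06) in library 1 and 2.72 (1.63 to 4.24) in library 2. Cd44 was at 1.23 (0.926 to 1.61) and 2.29 (1.31 to 3.71), with overlapping intervals, and Itgb1 at 2.62 (2.17 to 3.15) and 3.57 (2.31 to 5.27). Basal genes took 0.0163% of library 1 and 0.651% of library 2 transcripts, mesenchymal genes 0.0140% and 0.764%, and epithelial genes 0.785% and 0.363%. Their part in the member levels was not tested, and with 1 library each the difference has no replicate check.

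**Figure D5:**
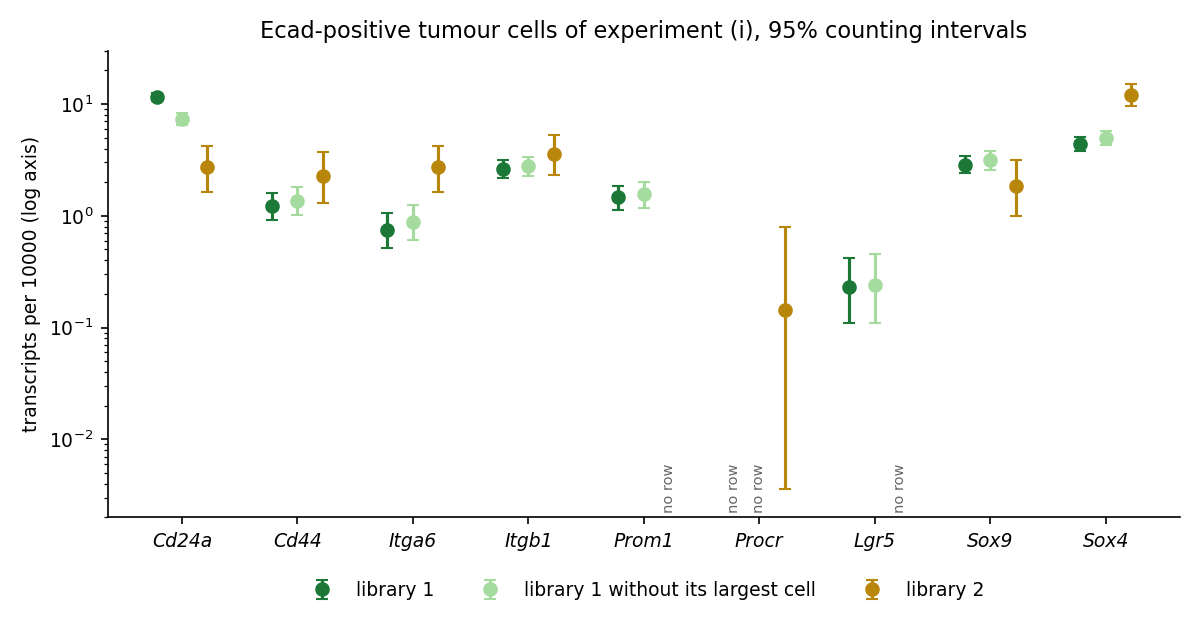
Transcripts per 10000 (vertical axis, log scale) of the members in libraries 1 and 2 of tumour cells labelled Ecad-positive in experiment (i), and in library 1 without its largest cell, with 95% Poisson intervals that cover counting error only. Cd24a stood at 11.6 in library 1, 7.41 without its largest cell and 2.72 in library 2, while Sox4 stood at 4.43 and 12.1; members with no row in a table are marked.

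Prom1, which encodes the membrane glycoprotein CD133, could be measured in library 1 alone, at 1.46 per 10000 (1.13 to 1.87) in 31 of 95 cells. Lgr5 had 10 transcripts in 7 of 95 cells there (0.228, 0.109 to 0.420), and Procr 1 transcript in 1 of 65 cells of library 2. Cells of library 1 carried up to 8 members at once, and 50 of 95 carried 4 or more, against 6 of 65 in library 2, whose cells were shallower (median 883 transcripts against 3083). Cd24a and Sox4 were found together in 55 of the 95 cells and Cd24a and Sox9 in 47. Separately, Cd24a was found in 74 of them, Sox4 in 64 and Sox9 in 54, and the joint counts carry no test. Cd44 was found in 33 of 95 cells of library 1 and in 0 of 71 TEpos cells of experiment (ii), which allows up to 4.23% of cells with a transcript and sets no limit on cells that express the gene. The tables were made separately, with median depths of 3083 and 2064 transcripts per cell, so no test was made.

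Over the 12 sums of BEneg, TEneg and TEpos, centred within libraries, the genes most like Sox9 were Ier3, an immediate early gene (Pearson r = 0.95), the water channel gene Aqp5 (0.91) and the ribosomal protein gene Rpl27 (0.87), out of 489 genes. Those most like Cd24a were the ribosomal protein genes Rps20 (0.72), Rps4x (0.68) and Rps15 (0.64). The sums share libraries and differ in depth, so these values are descriptions.

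Of 65 other genes in lists of stem cell, Wnt, integrin and SOX genes, 46 had a row in experiment (ii) and 30 were tested among the 6167 genes. In TEneg against TEpos 2 of the 30 were higher and 1 lower, where 1.04% and 0.892% of all 6167 genes were, with a median log2 fold change of 0.41 against −0.03 for all genes. Sox18, a transcription factor of endothelial cells, had 38 transcripts in TEneg (2.16 ± 1.34 per 10000) and 1 in TEpos (fitted log2 difference 4.50, edgeR adjusted p = 4.82e-05). Of its TEneg transcripts, 33 lay in the 27 endothelial-high cells named above and 5 in the other 42. Id1, a helix-loop-helix inhibitor of differentiation, averaged 1.79 ± 0.999 per 10000 in TEneg, against 0.328 ± 0.0361 in TEpos (2.26 on the log2 scale, edgeR adjusted p = 0.0338), with 23 transcripts in those 27 cells and 11 in the rest. Epcam, an epithelial adhesion gene, was lower in TEneg by this fit (−1.08, edgeR adjusted p = 0.00413) and did not pass among the 490 genes.

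In BEneg against TEneg 1 of the 30 was higher and 4 were lower, where 4.46% and 5.5% of all genes were, with a median of −1.44 against −0.69 for all genes. The gene that rose was Itgb2, the beta chain of leukocyte integrins, at 6.49 ± 1.09 per 10000 in BEneg and 0.347 ± 0.412 in TEneg (log2 fold change 4.40, edgeR adjusted p = 3.67e-10). Those that fell were Epcam (−2.12), the Wnt target and cell cycle gene Ccnd1 (−3.71), the integrin activator gene Fermt2 (−3.28) and Sox18 (−2.37). Itgb1 and Itgb2 moved in opposite directions in BEneg. In BEneg against TEpos 2 rose, Itgb2 (4.82) and the integrin-binding talin gene Tln1 (2.58), and 5 fell, among them Epcam (−3.21), Sox10 (−1.91) and Fermt2 (−3.46). Of all genes 4.86% were higher and 7.52% lower there, and the median was −0.93 for the 30 against −0.74 for all genes. Sox10, a SOX gene of neural crest and mammary cells, averaged 1.61 ± 1.33 per 10000 in BEneg and 4.39 ± 1.70 in TEpos.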

How the data were processed

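The authors deposited estimated counts of molecules for every gene and well of the CEL-seq libraries, a 3′ method with cell and molecule barcodes. Each deposited value could be turned back, within 3.1e-13, into a whole number of the 256 possible molecular barcodes seen, through the usual correction for barcodes drawn more than once, and shows no scaling between wells. Reads were mapped with BWA 0.6.2-r126 to mm10, per the submitters' processing notes; the sources used here do not name the counting step. Trizol lysis and paired-end sequencing are given in the labels' protocols.

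Spike-ins were left out. Wells with at least 500 transcripts were summed per library and population (at least 3 cells) and rounded. BEneg, TEneg and TEpos sums were fitted together with edgeR 4.0.16 (R 4.3.3; quasi-likelihood, TMM, library as block), over 490 genes kept by filterByExpr, or 6167 with at least 10 transcripts over the 12 sums for members below that filter. P-values were adjusted over all genes of a fit by Benjamini-Hochberg. The code was tested on simulated data. The labels do not say that libraries come from separate animals, so p-values measure the spread between libraries, which may be technical. Populations share libraries by design, and the correlation of residuals within a library was 0.0608 to 0.351. Sums of a population differed between libraries by more than sampling noise (chi-square per degree of freedom 1.61 to 3.14). Shares at 500 transcripts are expected values under sampling without replacement. Poisson (exact) and binomial intervals are at 95% and cover counting error only; a count of 0 allows 3. Each well was meant to hold 1 cell, so no doublet caller was run.

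Alternatives were no TMM, DESeq2 1.42.0, limma 3.58.1 on means of log2(transcripts per 10000 + 1) over cells, other filters, other cell minimums, no block, cells left out and each library left out. All 9 members are named; of the other listed genes, those called are named, up to 5 a comparison by smallest p, and the 3 most correlated genes for members passing filterByExpr. The members and lists were chosen with earlier results of these data known.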

Additional observations from a re-analysis of the deposited data

Results flagged for a closer look

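Within groups of 4 libraries, a single library stood far from the other 3 for several low members. Chance marks about 1 in 20 groups of evenly spread values, but a gene with a transcript in 1 library and 0 in the other 3 is always marked, which holds for the single transcripts below. Cd44 in BEneg was expected in 6.57% of library 4 cells at 500 transcripts, with at most 0.76% elsewhere, and in TEneg it had its single transcript in library 1 (0.268 per 10000, 1.03% of cells). In BEneg the single transcripts of Itga6 (0.895 per 10000, 4.95% of cells) and Sox4 (0.895 per 10000, 4.16%) were in library 4 and that of Lgr5 (0.842 per 10000, 8.66%) in library 3. Itgb1 was expected in 3.97% of TEpos library 4 cells, against at least 9.51% in the other libraries. Sox4 stood at 4.56 per 10000 in TEneg library 1, with 1.10 as the next highest.

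Sox9 was higher in BEneg than in BEpos in the single blood library that has both, by 0.290 per 10000, while TEneg was lower than TEpos in 4 of 4 libraries, by 4.39 on average (−4.39); the difference between blood and tumour was not tested.

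Library 3 of experiment (i), where 1 well reached 500 transcripts, held 10 Cd24a transcripts in 7 wells and 6 Cd44 transcripts in 5 wells over all 96 wells.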

How the results depend on the processing

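Member counts moved as follows. In TEneg against TEpos 1 member (Sox9) was called in place of 0 with limma on means of cells, with no filter and among the 6167 genes. In BEneg against TEneg the 3 calls became 0 with DESeq2 and 0 without the 37 TEneg cells high in other markers, and 0 to 2 when a library was left out; the 3 calls of members below filterByExpr became 0, 0 and 0 to 3. In BEneg against TEpos leaving out a library gave 0 to 1.

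Gene counts in TEneg against TEpos went to 20 without the replicate block, 17 with at least 1000 transcripts per cell, 55 without cells over 20000, 7 without the 37 TEneg cells, 119 among the 6167 genes and 99 with no filter, and ran from 19 to 42 with a library left out (main count 31). BEneg against TEneg gave 111, 315 with limma, 614 and 461 in place of 201 (1000 transcripts, limma, 6167 genes, no filter), and BEneg against TEpos 125, 374, 764 and 581 in place of 236. Without TMM the median of all 490 genes moved to −0.49 in BEneg against TEneg, with 99 higher and 187 lower, and to −0.48 in BEneg against TEpos, with 110 and 188. The block changed no member's call.

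Signs turned for Itgb1 in TEneg against TEpos (−0.24 without the 37 cells), Sox4 (−0.14 without library 1, up to 1.18 without another), Cd24a in BEneg against TEneg (−0.0035 with limma), and Cd24a in BEneg against TEpos (−0.24 without TMM, −0.49 with at least 1000 transcripts, −0.03 without library 2, −0.24 without library 3, up to 0.53 without library 1, −0.37 with limma, −0.47 among 6167 genes, −0.37 with no filter). The cause was not tested. Of the shares of cells and the levels of experiment (i) under other settings, 161 moved by less than the spread between libraries or the counting interval and 30 by more. Low counts per library limit Cd44, Procr and Lgr5.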
